A study of Mus musculus with 12 samples.

Results

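The endothelin and renin-angiotensin genes were examined in the hearts of mice with a mutated or deleted Lemd2, the gene of a protein of the inner nuclear membrane that carries a LEM domain. The rows of a count table were selected by gene symbol, from a list chosen with earlier results of these data known. Of the 24062 symbols in the table, 9 were members: the endothelins Edn1 and Edn3, the endothelin receptors Ednra and Ednrb, the converting enzymes Ece1 and Ace, angiotensinogen (Agt), and the angiotensin II receptors Agtr1a and Agtr2. Poly(A) RNA of whole hearts was sequenced as 1 library per mouse in 4 groups of 3 mice. At 2 months of age, WT mice were compared with KI/KI mice, homozygous for the Lemd2 c.T38>G allele in every tissue. At postnatal day 1 (P1), Lemd2-floxed mice, whose first Lemd2 exon is flanked by loxP sites, were compared with cKO mice, in which Cre driven by the Myh6 promoter removes that exon in cardiomyocytes. The other cells of the cKO heart keep an intact gene. WT and floxed hearts differ in age and in mouse line together, and these 2 differences cannot be told apart.

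Endothelins are peptides that vessel and endocardial cells release after endothelin-converting enzymes cut their precursors, and they act through a pair of G protein-coupled receptors, EDNRA on muscle cells and fibroblasts and EDNRB on endothelial cells among others. In the renin-angiotensin pathway, renin cuts angiotensinogen to angiotensin I, ACE turns this into angiotensin II, and angiotensin II acts through type 1 receptors, which couple to Gq, calcium and growth signalling, and type 2 receptors, which are abundant in fetal tissues. In the heart both pathways are known for constriction of vessels, hypertrophy of cardiomyocytes and fibrosis. RNA levels do not measure the peptides themselves.

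Library totals lay between 37063669 and 44789753 counts, no replicate pair held identical counts, and the 12 pairs within groups differed beyond sampling noise. Levels are in CPM, the count relative to the library total after correction by edgeR's TMM factors over all 12 hearts. Lemd2 itself stood at 32, 34.8 and 32.9 CPM in WT hearts against 25.6, 25.2 and 24.8 in KI/KI hearts, and at 24.3, 25.0 and 25.4 in floxed hearts against 6.59, 13.1 and 11.3 in cKO hearts. The groups did not overlap in either comparison, and the log2 fold changes were -0.39 (SE 0.06, adjusted p = 0.186) and -1.27 (SE 0.23, adjusted p = 0.0159). Cardiomyocyte markers were high in every heart (summed levels of 47478 to 100770 CPM over 10 genes). One heart, cKO 4, had Xist at 612 CPM and almost no Ddx3y (0.0399 CPM), while the other 11 hearts had Ddx3y at 96.9 CPM or more, so sex is not balanced in that group.

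The members lie on 7 chromosomes of GRCm38. RefSeq gave promoter windows on GRCm38.p6 for 8 of the 9, all but Agtr1a. The 250 bases before the first transcribed base are shown for 3 members that passed the test in the cKO comparison, 5′ to 3′ on the strand of the gene, at chr13:42301226-42301475 (plus strand) for Edn1, chr11:105967698-105967947 (plus strand, the upstream of 2 listed starts) for Ace and chr14:103843702-103843951 (minus strand) for Ednrb. Capitals mark matches, on either strand, to 5 short motifs: TGANTCA for AP-1 factors, GATAA for GATA factors, TATAAA for the TATA box, GGAAA for the core of NFAT sites and ACGTG for the core of HIF sites.
Edn1: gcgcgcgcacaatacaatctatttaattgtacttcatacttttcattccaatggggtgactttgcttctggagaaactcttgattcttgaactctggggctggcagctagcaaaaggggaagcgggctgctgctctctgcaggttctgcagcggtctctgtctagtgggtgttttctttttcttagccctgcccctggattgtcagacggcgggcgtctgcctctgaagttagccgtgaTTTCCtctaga
Ace: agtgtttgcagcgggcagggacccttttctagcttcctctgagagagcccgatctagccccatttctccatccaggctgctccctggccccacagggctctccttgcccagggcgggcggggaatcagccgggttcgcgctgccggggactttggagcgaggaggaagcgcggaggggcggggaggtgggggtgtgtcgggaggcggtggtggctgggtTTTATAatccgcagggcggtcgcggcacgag
Ednrb: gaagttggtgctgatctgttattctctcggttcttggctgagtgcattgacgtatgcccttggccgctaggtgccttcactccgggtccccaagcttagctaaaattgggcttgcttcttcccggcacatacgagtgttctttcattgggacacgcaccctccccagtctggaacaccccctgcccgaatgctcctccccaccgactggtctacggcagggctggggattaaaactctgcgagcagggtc
The Edn1 window held 1 match, an NFAT core on the reverse strand 11 bases before the start, and the Ace window held 1, a TATA match on the reverse strand 31 bases before it. The Ednrb window held none of these motifs. A member was counted if any of its windows matched, and Ece1 and Ace had more than 1 window, while the background counts single windows. The shares are therefore not in the same unit. NFAT cores were present in the windows of 4 of the 8 members against 55.6% of 32851 promoter windows, and TATA matches in 2 of 8 against 12.4%. HIF cores stood in 1 of 8 against 16.6%, and the AP-1 and GATA letters in none of the 8 against 6.75% and 22.6%. The matches are descriptions of letters and were not tested for any factor.

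Per kilobase of annotated exon (CPM per kb), Ece1 had the highest mean level in each of the 4 groups, from 33.4 in WT to 63.8 in cKO hearts. In WT hearts it was followed by Ace at 23.2 and Agtr1a at 22.9, which overlapped, then by Ednra at 16.9 and Ednrb at 11.9. Edn1 (2.75), Agt (2.66) and Edn3 (0.575) were low, and Agtr2 was close to absent at 0.0145 CPM per kb. The P1 floxed heart had a different order, with Ednrb (33.0) and Ednra (21.0) next after Ece1 and Ace down at 7.14, a level that overlapped Agtr2 at 6.57. In cKO hearts Edn1 moved to second place at 44.7 ± 24.3 CPM per kb (SD, n = 3), a range that overlapped both Ece1 above it and Ednrb below it.

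**Figure D1:**
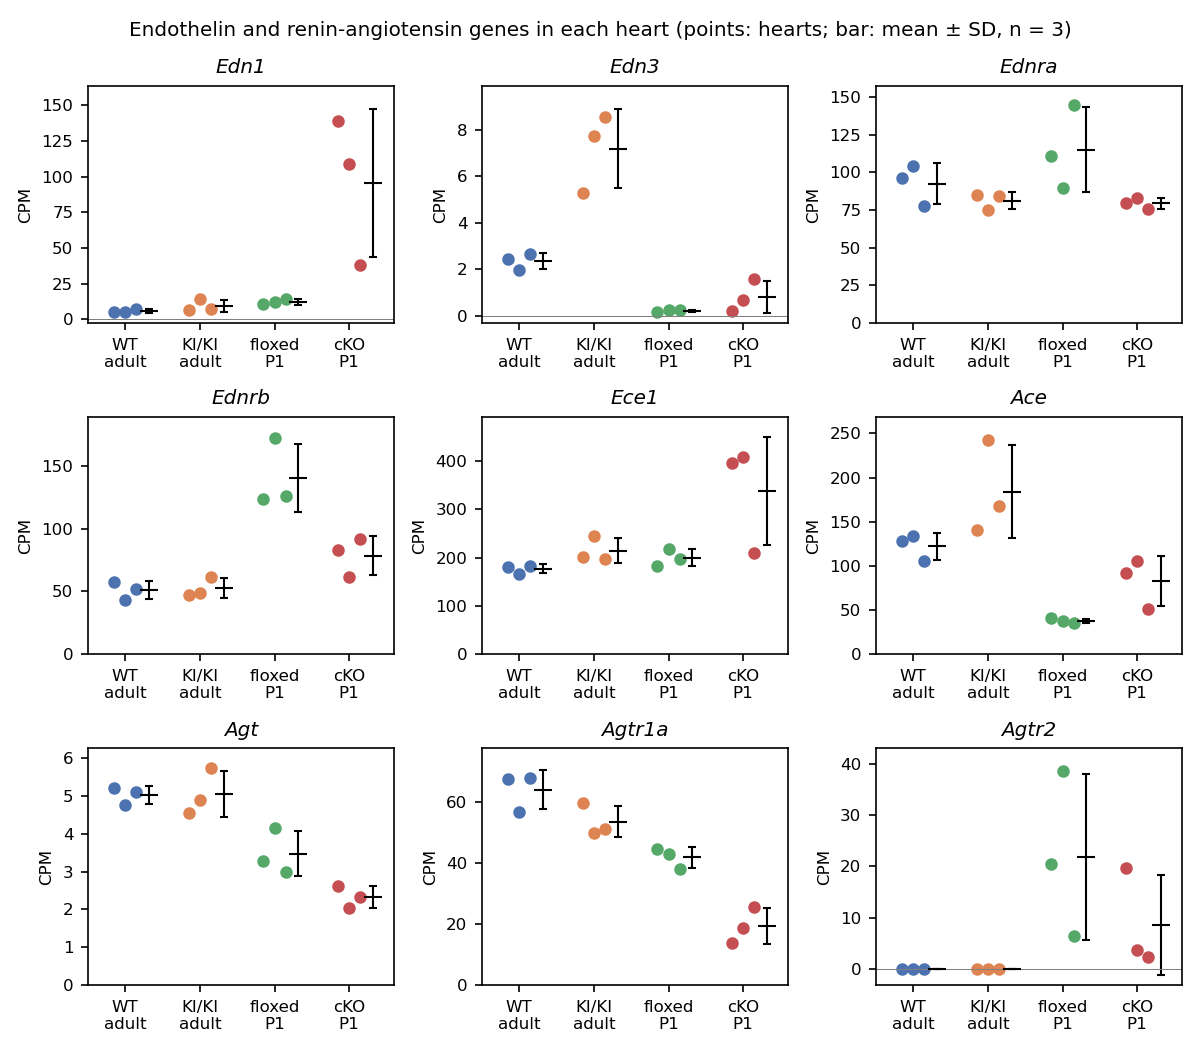
Level (CPM, linear axes from 0) of each of the 9 genes in each heart, 1 point per heart, with the group mean and SD (n = 3) beside it. Edn1 stands at 38.1 to 139 CPM in the cKO hearts and at 14.2 or less in all 9 others, and Agtr2 is near 0 in all 6 adult hearts.

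In KI/KI hearts no member passed an adjusted p of 0.05 in edgeR's quasi-likelihood test, and neither did any of the 14592 genes tested (0% higher and 0% lower), although 2331 genes had an unadjusted p under 0.05 and DESeq2 called 518. Of the 8 members tested, Edn3, Ece1 and Ace were higher at an unadjusted p under 0.05, against 8.77% of all genes tested, and Agtr1a was lower, against 7.2%. The same 3 were higher without overlap between the groups (background 11.4%), and none was lower without overlap (background 10.4%). DESeq2 called Edn3 alone higher, against 2.1% of genes called higher, and no member lower, against 1.46%. Agtr2 was too low to be tested in adult hearts.

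In cKO hearts 4 of 9 members passed an adjusted p of 0.05. Edn1 and Ace rose, against 9.15% of 15317 genes, and Ednrb and Agtr1a fell, against 7.31%. Both risen genes lay above all floxed hearts (19.9% of genes did so), and Ednra, Ednrb, Agt and Agtr1a lay below all of them (19.1%). The median log2 fold change over the 9 members was -0.53, beside 0.00 over all genes. These calls depend on few hearts: 2520 genes were called with all 6 libraries, but 129 without floxed 1, 623 without floxed 2 and 482 without cKO 5, and the members' calls lost in those fits are named below.

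Between the control groups, Edn3, Ace, Agt and Agtr1a were higher in adult WT than in P1 floxed hearts, against 31.4% of 15183 genes, and Edn1, Ednrb and Agtr2 were lower, against 33.3%. The same 4 and 3 genes did not overlap between the groups, against 34.4% and 36.4% of genes. With library totals in place of TMM factors, the median log2 difference over all genes moved from -0.04 to -0.45, and the members whose calls depend on the scaling are named with their values. The WT and floxed hearts of this comparison also serve as the controls of the genotype comparisons.

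A test of whether the genotype effect differed between the models (cKO minus KI/KI, all 12 hearts) called no member in edgeR, against 2.51% of 15729 genes. At an unadjusted p under 0.05, met by 3182 of the 15729 genes, it gave Edn1, Ednrb, Agt and Agtr1a. DESeq2 called 1323 genes, with Edn1, Ednrb and Agtr1a among them. The difference was 2.34 (SE 0.61, adjusted p = 0.07) for Edn1, -0.88 (SE 0.25, adjusted p = 0.0869) for Ednrb and -0.86 (SE 0.25, adjusted p = 0.0894) for Agtr1a on the log2 scale. Age, allele and targeted cells all differ between the models.

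**Figure D2:**
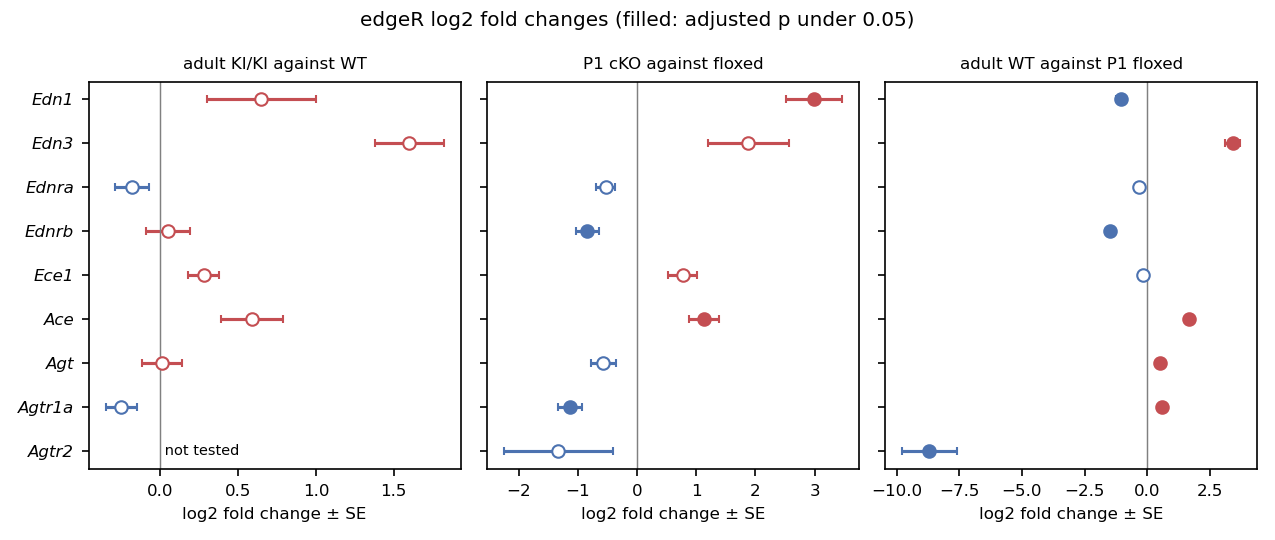
Log2 fold change (edgeR, ± SE) of each member in the 3 comparisons, each with its own horizontal scale. Red marks higher and blue lower in the first-named group, and filled points have an adjusted p under 0.05: 0 in KI/KI hearts, 4 in cKO hearts and 7 between the control groups.

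Edn1, which encodes endothelin-1, the main vasoconstrictor endothelin of endothelial cells, was higher in cKO than in floxed hearts. It stood at 139, 109 and 38.1 CPM in the cKO hearts against 10.4, 12 and 14 CPM in floxed controls. Each cKO heart was above each floxed heart, and cKO 6 was well below the other two. This was a log2 fold change of 2.99 (SE 0.47, 7.93-fold, adjusted p = 0.0114). With 1 heart left out at a time it lay between 2.59 and 3.36, and the adjusted p rose to 0.0736 without floxed 1 and 0.056 without floxed 2. In the adult hearts Edn1 was at 4.98, 5.19 and 7.45 CPM in WT and at 6.43, 14.2 and 6.86 CPM in KI/KI. Those groups overlapped, KI/KI 5 alone was above all WT hearts, and the log2 fold change of 0.65 (SE 0.35, adjusted p = 0.389) fell to 0.18 without it. Edn1 was lower in adult WT than in floxed hearts by a log2 fold change of -1.05 (SE 0.19, adjusted p = 0.00175), but the adjusted p was 0.0574 when all 12 hearts shared the fit.

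Because these are whole hearts, fewer cells of a type and less RNA per cell cannot be told apart. Endothelial markers summed to 1257 to 1373 CPM in floxed hearts and 1436 to 1836 CPM in cKO hearts, all 10 were detected, and 1 of 10, Pecam1 (log2 fold change 0.34, adjusted p = 0.042), passed the test. Pecam1 encodes an adhesion protein of endothelial junctions. Endocardial markers summed to 472 to 544 CPM against 478 to 869 CPM, with 1 of 8 called higher, the growth factor gene Nrg1 (log2 fold change 3.02, adjusted p = 0.0178). The endocardial sum was highest in cKO 4 and lowest in cKO 6, as Edn1 was. The endothelial sum had another order, with cKO 6 highest and cKO 4 lowest. Its marker Cdh5 had that order too, at 282, 350 and 558 CPM in cKO 4, cKO 5 and cKO 6. Another marker of that list, Emcn, a sialomucin gene of capillary and venous endothelium, had the order of Edn1. It was at 219, 173 and 76.8 CPM in cKO hearts and 57.7, 68 and 66.4 CPM in floxed controls, without overlap (log2 fold change 1.30, SE 0.36, adjusted p = 0.0505 by edgeR, 7.2e-04 by DESeq2), and it was named after its values were seen. The part of these cells in the Edn1 difference was not tested.

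Edn3 encodes endothelin-3, the ligand with a preference for EDNRB and a role in neural crest cells. In WT hearts it was at 2.44, 1.98 and 2.67 CPM, and in KI/KI hearts at 5.27, 7.72 and 8.54 CPM. All 3 KI/KI hearts were above all WT hearts. The log2 fold change was 1.60 (SE 0.22, 3.04-fold). Its adjusted p was 0.186 by edgeR's test and 6.1e-07 by that of DESeq2. Over the fits with 1 heart left out it lay between 1.46 and 1.78, and without KI/KI 4 the adjusted p was 0.0343. Schwann and neural crest markers summed to 28.8 to 48.6 CPM in WT and 31.5 to 38.4 CPM in KI/KI hearts, which overlapped. Fibroblast markers had a positive log2 fold change in 10 of 10 (median 0.50), but 0 of 10 were called. The fibroblast sums were 2157 to 2572 CPM in WT hearts. They were 2574, 4672 and 3035 CPM in KI/KI 4, KI/KI 5 and KI/KI 6. The part of both marker sets in the Edn3 difference was not tested.

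At P1, Edn3 was barely detected, with 0.158, 0.239 and 0.256 CPM in the floxed group (7 to 12 counts) and 0.22, 0.667 and 1.58 CPM in cKO hearts. The groups overlapped through cKO 4, the heart with the most Edn1. The log2 fold change of 1.88 (SE 0.69, adjusted p = 0.107) passed the threshold without cKO 4 (2.33, adjusted p = 0.0349) and with a Y-linked covariate (2.43, adjusted p = 0.0368). Edn3 was higher in adult WT than in floxed hearts, at a log2 fold change of 3.42 (SE 0.30, 10.7-fold, adjusted p = 3.7e-05). Per kilobase, Edn1 exceeded Edn3 by 3.92 to 5.38 times in the WT hearts, 1.54 to 3.54 times in the KI/KI hearts, 96.5 to 127 times in the floxed hearts and 46.4 to 1218 times in the cKO hearts. The ratio was thus lower in all KI/KI than in all WT hearts, and within cKO hearts it spanned the whole floxed range.

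Ece1, the endothelin-converting enzyme that cuts big endothelin to its active form, reached 396, 409 and 210 CPM in the cKO group and 183, 218 and 197 CPM in the floxed group. Only cKO 4 and cKO 5 were above the floxed hearts, and cKO 6 lay among them. The log2 fold change of 0.77 (SE 0.25) did not pass the test (adjusted p = 0.0805), and without cKO 6 it was 1.02 (adjusted p = 0.00163). DESeq2 with all 6 hearts gave an adjusted p of 0.0119. In adult hearts Ece1 was at 181, 167 and 183 CPM in WT and 201, 245 and 198 CPM in KI/KI, without overlap, with a log2 fold change of 0.28 (SE 0.10, adjusted p = 0.272). The adult to P1 difference was -0.18 (SE 0.08, adjusted p = 0.101), and -0.58 (adjusted p = 6.3e-04) with library totals.

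Ednrb, the endothelin B receptor, measured 124, 172 and 126 CPM in the floxed group and 83.0, 61.4 and 91.4 CPM in the cKO group. All cKO hearts were below all floxed hearts, and floxed 2 was the highest of them. Ednrb changed by a log2 fold change of -0.84 (SE 0.19, adjusted p = 0.0288). The adjusted p was 0.0868 without floxed 1, 0.076 without floxed 2, 0.0843 without cKO 5 and 0.0507 with a Y-linked covariate, at log2 fold changes between -0.96 and -0.68 with 1 heart left out. Schwann and neural crest markers, cells in which Ednrb is also known, summed to 24.7 to 59.1 CPM in floxed hearts and 17.8 to 24.0 CPM in cKO hearts, lower without overlap. Their part in the Ednrb difference was not tested. The adult levels were 57.7, 43.4 and 51.7 CPM in WT and 46.9, 48.9 and 61.5 CPM in KI/KI hearts, which overlapped (log2 fold change 0.05, SE 0.14, adjusted p = 0.885). Ednrb was 2.78-fold lower in adult WT than in floxed hearts (log2 fold change -1.47, SE 0.16, adjusted p = 1.2e-04).

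Ednra, the endothelin A receptor, was at 96.0, 104 and 77.5 CPM in WT, 84.8, 74.9 and 84.2 in KI/KI, 111, 89.5 and 145 in floxed and 79.7, 82.8 and 75.9 CPM in cKO hearts. The cKO hearts were below the floxed hearts without overlap, and the WT range overlapped those of KI/KI and floxed hearts. For cKO hearts the log2 fold change was -0.53 (SE 0.16, adjusted p = 0.0668 by edgeR, 0.019 by DESeq2), and -0.60 (adjusted p = 0.0403) with library totals. For KI/KI hearts it was -0.18 (SE 0.11, adjusted p = 0.424), and between ages -0.32 (SE 0.18, adjusted p = 0.155), or -0.73 (adjusted p = 0.00412) with library totals. Per kilobase, Ednrb stood below Ednra in all 6 adult hearts, at ratios of 0.533 to 0.937, and above it in all 3 floxed hearts, at ratios of 1.12 to 2.47. In cKO hearts the ratio ran from 0.952 to 1.54, which overlapped the floxed range.

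Agt, the precursor of all angiotensins, is made mainly by the liver, and was low in the heart. It was at 5.21, 4.76 and 5.11 CPM in WT and 4.56, 4.89 and 5.73 CPM in KI/KI hearts, which overlapped (log2 fold change 0.01, SE 0.13, adjusted p = 0.971). At P1 it was at 3.29, 4.15 and 2.99 CPM in floxed and 2.63, 2.04 and 2.33 CPM in cKO hearts. These did not overlap, but the log2 fold change of -0.57 (SE 0.21) did not pass the test (adjusted p = 0.106). The adult WT level was above the floxed level by a log2 fold change of 0.53 (SE 0.17, adjusted p = 0.0269). That call was lost in 4 of the 6 fits with 1 heart left out (without WT 1, WT 3, floxed 1 or floxed 3, adjusted p of 0.0563 to 0.0828), and the difference was 0.12 (adjusted p = 0.578) with library totals.

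Ace, the angiotensin-converting enzyme of endothelial surfaces, reached 91.5, 105 and 50.7 CPM in the cKO group, against 40.3, 37.2 and 35.7 CPM in the floxed group. All cKO hearts were above all floxed hearts, with cKO 6 closest to them, as for Edn1 and Ece1. Its log2 fold change was 1.13 (SE 0.26, 2.19-fold, adjusted p = 0.0307). Its direction held with each heart left out (0.93 to 1.39), but the call did so in 1 of 6 fits, the one without cKO 6 (adjusted p = 9.4e-04), and the adjusted p was 0.118 without floxed 1, 0.103 without floxed 2, 0.0826 without floxed 3, 0.0613 without cKO 4, 0.101 without cKO 5 and 0.0702 with a Y-linked covariate. Macrophage markers also rose in cKO hearts, with 5 of 9 called higher, beside 9.15% of all genes. Their sums were 115 to 137 CPM in floxed and 147 to 272 CPM in cKO hearts, again lowest in cKO 6. Mural markers were mixed, with 5 of 10 called higher, beside 9.15% of all genes, and 7 of 10 positive. The means of Kcnj8, Abcc9 (556 CPM in floxed, 321 CPM in cKO hearts) and Myh11 were lower, without a call. Mural sums overlapped, at 1981 to 2390 CPM in floxed and 2286 to 3440 CPM in cKO hearts. The part of both marker sets in the Ace difference was not tested.

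In adult hearts Ace was at 128, 134 and 105 CPM in WT and 141, 243 and 168 CPM in KI/KI. The KI/KI hearts were above the WT hearts without overlap, with KI/KI 5 the highest. The log2 fold change was 0.59 (SE 0.20), for which edgeR gave an adjusted p of 0.269 and DESeq2 one of 0.0829, and it was 0.33 without KI/KI 5. Ace was 3.23-fold higher in adult WT than in floxed hearts (log2 fold change 1.69, SE 0.10, adjusted p = 4.8e-06). An antisense gene, Gm11651, shares 295 exon bases with Ace, and the strand setting of the counting is not given in the sources used here, so reads of the pair may not be separated.

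Agtr1a, the main type 1 angiotensin II receptor of the mouse, measured 44.5, 42.9 and 37.9 CPM in the floxed group and 13.8, 18.6 and 25.4 CPM in the cKO group. All cKO hearts were below all floxed hearts, and cKO 4, with the most Edn1, had the least Agtr1a. On the log2 scale the fold change was -1.13 (SE 0.20, 2.18-fold lower, adjusted p = 0.0162). With 1 heart left out it lay between -1.37 and -0.94, and the adjusted p was 0.0864 without floxed 1, 0.0628 without floxed 2 and 0.0721 without cKO 5. In adult hearts it was at 67.4, 56.5 and 67.9 CPM in WT and 59.5, 49.9 and 51.2 CPM in KI/KI, where 2 of 3 KI/KI hearts were below all WT hearts (log2 fold change -0.25, SE 0.10, adjusted p = 0.305). The adult WT level was above the floxed level by 0.61 (SE 0.10, adjusted p = 9.1e-04), and by 0.20 (adjusted p = 0.16) with library totals. Cardiomyocyte markers, summed, were at 52250 to 61486 CPM in floxed and 47478 to 53435 CPM in cKO hearts. Of the 10, 3 were called lower (Tnni3, Ryr2 and Ttn, of contraction and calcium release), beside 7.31% of all genes. The log2 fold change was positive for 5 of the 10, with a list median of -0.09. The part of these markers in the Agtr1a difference was not tested.

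Agtr2, the type 2 receptor on the X chromosome, separated the ages more than any other member. It had 1, 1 and 3 counts in the WT hearts and 0, 0 and 4 counts in the KI/KI hearts, against 910, 1775 and 302 counts in the floxed hearts. The floxed level was 438 times the WT level (95% counting interval 187 to 1350, 2987 against 5 counts), and edgeR's adjusted p for the age comparison was 6.0e-04. The interval covers counting error only. With 1 heart left out the fitted log2 difference, adult minus P1, lay between -9.30 (without WT 3) and -8.00 (without floxed 2), and with the Y-linked covariate it was -6.66 and no longer called (adjusted p = 0.0615). In CPM the floxed hearts were at 20.5, 38.6 and 6.44 and the cKO hearts at 19.7, 3.67 and 2.33. These groups overlapped through cKO 4, the only heart with high Xist and almost no Ddx3y. The 3 floxed hearts spread widely among themselves. The log2 fold change in cKO hearts was -1.33 (SE 0.92, adjusted p = 0.343). With 1 heart left out it ranged from -2.88 (without cKO 4, adjusted p = 0.0554) to -0.65 (without floxed 2). With the Y-linked covariate it was also more negative than -1.33 and was not called (adjusted p = 0.0593). The part of sex in the Agtr2 values was not tested further.

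The P1 hearts with high Agtr2 also had the highest levels of surfactant transcripts of lung epithelium. Sftpb and Sftpd encode surfactant proteins. Sftpb stood at 1.42, 3.69 and 0.299 CPM in the floxed and 2.65, 0.313 and 0.194 CPM in the cKO group, and Sftpd at 3.18, 6.24 and 0 CPM in the floxed and 3.11, 0.0208 and 0.219 CPM in cKO hearts. For Agtr2, Sftpb and Sftpd alike, floxed 1, floxed 2 and cKO 4 were the 3 highest of the 6 hearts. Summed over 8 lung markers, without Hopx, which heart muscle expresses too, and without the airway gene Scgb1a1, these hearts were at 7.92, 14.8 and 10.4 CPM and the other 3 P1 hearts at 2.7 to 3.71 CPM. The full list of 10 summed to 384 to 420 CPM in floxed and 268 to 317 CPM in cKO hearts, most of it Hopx, and 0 of the 6 markers tested passed. Sftpc, a defining gene of alveolar type II cells, had at most 15 counts in any heart. Ager, another lung marker, was at 2 to 4.3 CPM in floxed and 1.99 to 3.45 CPM in cKO hearts. Scgb1a1 was also at 95.3 CPM in WT 3 and 34.1 CPM in KI/KI 4, where Agtr2 had 3 and 0 counts. The part of lung transcripts in the Agtr2 values was not tested.

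**Figure D3:**
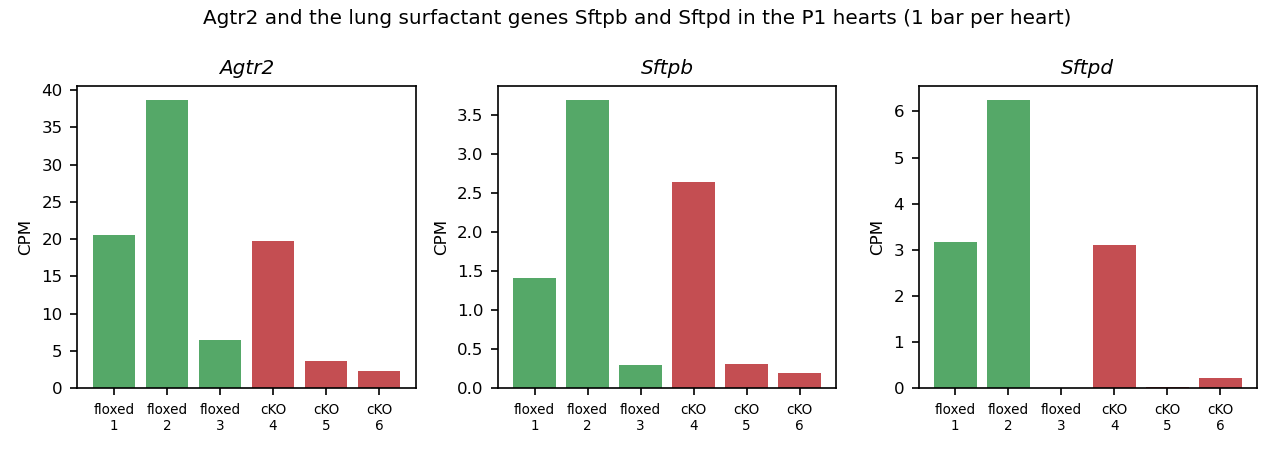
Levels (CPM, axes from 0) of Agtr2 and of the lung surfactant genes Sftpb and Sftpd in the 3 floxed (green) and 3 cKO (red) hearts at P1, 1 bar per heart. Floxed 1, floxed 2 and cKO 4 are the 3 highest hearts in each panel, and Sftpd is at 0 CPM in floxed 3.

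The other genes of both pathways were taken from lists written from general knowledge, with earlier results of these data known. The list of 7 other endothelin genes includes peptidases such as Mmel1, Phex and Ecel1, so its counts do not describe endothelin genes alone. Of the 7, 6 could be tested at P1, and 2 rose in cKO hearts, beside 9.15% of all genes. They were Ece2, a second converting enzyme (log2 fold change 0.71, SE 0.15, adjusted p = 0.0248), and Mmel1, a related neprilysin-like peptidase (1.72, SE 0.37, adjusted p = 0.025) at no more than 1.34 CPM in any heart. Of the 2 tested in adult hearts, none passed, with Mme, the neprilysin gene whose product degrades endothelins and angiotensins, at 33.9 ± 9.95 CPM in WT and 14.1 ± 4.63 CPM in KI/KI hearts (SD, n = 3, log2 fold change -1.26, adjusted p = 0.203 by edgeR, 7.7e-04 by DESeq2) and Ece2 at 0.53 (adjusted p = 0.249). Between ages 2 of 5 were higher in adult WT hearts, beside 31.4% of all genes: Mme (2.38, adjusted p = 3.0e-05) and Ece2 (0.51, adjusted p = 0.026). Another 2 were lower, beside 33.3% of all genes: Phex (-1.68, adjusted p = 0.00524) and Ecel1 (-2.30, adjusted p = 0.00669), both under 1 CPM on average.

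Of 21 other renin-angiotensin genes, 16 could be tested in each comparison, and Ren1, the renin gene, was listed at 0 counts in all 12 hearts. In cKO hearts 2 of the 16 rose and 1 fell, beside 9.15% and 7.31% of all genes. Bdkrb2, the bradykinin B2 receptor, rose from 0.812, 0.478 and 0.768 CPM to 2.95, 2.65 and 1.60 CPM (log2 fold change 1.81, SE 0.35, adjusted p = 0.0191), and Atp6ap2, the prorenin receptor, rose slightly (0.34, SE 0.08, adjusted p = 0.0392). Enpep, which encodes aminopeptidase A, the enzyme that shortens angiotensin II to angiotensin III, fell from 33.7, 41.9 and 31.2 CPM to 19.3, 17.1 and 17.9 CPM (-0.97, SE 0.14, adjusted p = 0.00885). No cKO heart overlapped the floxed hearts for any of these 3 genes. Over the 4 lists of other pathway genes, no gene was called in cKO hearts without floxed 1, 1 was called higher and 1 lower without floxed 2, and likewise without cKO 5. In KI/KI hearts none of the 16 passed, and the values furthest from 0 were -0.84 (SE 0.31, adjusted p = 0.279) for Mas1, the receptor of angiotensin 1-7, and, at 1403 ± 91.6 against 1117 ± 19.1 CPM (SD, n = 3), 0.33 (SE 0.09, adjusted p = 0.223 by edgeR, 0.00185 by DESeq2) for Ctsd, the lysosomal protease cathepsin D.

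Between ages, 5 of the 16 were higher in adult WT hearts and 6 lower, shares near the 31.4% and 33.3% of all genes. Those higher included Ctsd (log2 fold change 1.49), Agtrap, whose product draws type 1 receptors into the cell (0.88), Lnpep, the angiotensin IV binding aminopeptidase (2.36), and Mas1 (1.11). Those lower included Cma1, a mast cell chymase (-2.48), and the peptidases Prcp (-0.92) and Nln (-0.56) and Atp6ap2 (-0.23). Mast cell markers were lower in adult hearts in the same comparison, 6 of 6 tested, at summed levels of 18.3 to 24.5 CPM in WT against 53.2 to 64.5 CPM in floxed hearts. Their part in the Cma1 difference was not tested.

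On the aldosterone side, the synthase genes Cyp11b1 and Cyp11b2 were listed at 0 counts in all 12 hearts. Nr3c2, the mineralocorticoid receptor, fell in cKO hearts from 16.1, 13.8 and 11.5 CPM to 1.54, 3.21 and 5.10 CPM. The groups did not overlap, and the log2 fold change was -2.09 (SE 0.39, 4.25-fold lower, adjusted p = 0.0179). The value in KI/KI hearts was -0.49 (SE 0.19, adjusted p = 0.293), and between ages Nr3c2 was higher in adult WT hearts (1.68, adjusted p = 1.2e-04). Zbtb16, a transcription factor gene that corticosteroids induce, rose in cKO hearts (1.46, SE 0.38, adjusted p = 0.0425) and was at -0.90 (adjusted p = 0.418) in KI/KI hearts, where Fkbp5, another corticosteroid-induced gene, was at -0.99 (adjusted p = 0.431). In cKO hearts Fkbp5 was above all floxed hearts (1.03, SE 0.32, adjusted p = 0.067 by edgeR, 0.00458 by DESeq2). Zbtb16 and Fkbp5 were spread widely among WT hearts, Zbtb16 at 260 ± 127 CPM (SD, n = 3). Of 6 genes tested between ages, Zbtb16 (4.58, adjusted p = 2.9e-04) and Nr3c2 were higher in adult hearts, beside 31.4% of all genes. Hsd11b2, the enzyme that inactivates corticosterone (-1.50, adjusted p = 0.00716 by edgeR, 0.0952 by DESeq2), was lower, beside 33.3% of all genes. It was near the floor, with 4 counts in each WT heart and 15, 16 and 16 counts in the floxed hearts.

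All 36 genes of Gq and calcineurin signalling, which act downstream of type 1 angiotensin and endothelin receptors, could be tested. In cKO hearts 4 rose and 2 fell, shares near the 9.15% and 7.31% of all genes, with a list median of 0.04 beside 0.00 over all genes. Rcan1, a calcineurin inhibitor that calcineurin activity induces, rose from 68.7, 63.0 and 93.4 CPM to 137, 172 and 185 CPM (log2 fold change 1.13, SE 0.17, adjusted p = 0.00983), without overlap. Prkcd, a protein kinase C (0.69, adjusted p = 0.019), Nfatc1, a calcineurin-dependent transcription factor (0.49, adjusted p = 0.042), and Cybb, a phagocyte NADPH oxidase subunit (0.69, adjusted p = 0.0448), rose as well. Nfatc2, of the same family as Nfatc1 (-0.62, adjusted p = 0.0192), and Rgs2, which turns off Gq (-0.93, adjusted p = 0.0382), fell.

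None of the 36 passed in KI/KI hearts by edgeR's test, with Rgs2 at 39.3 ± 8.38 against 93.9 ± 34.8 CPM (SD, n = 3, log2 fold change -1.25, adjusted p = 0.204 by edgeR, 4.9e-04 by DESeq2) and the NADPH oxidase gene Nox4 at 1.09 (adjusted p = 0.272) furthest from 0. Rcan1 was at 0.84 (SE 0.21, adjusted p = 0.216 by edgeR, 0.00501 by DESeq2), and its effects in the 2 models differed by 0.30 (SE 0.29, adjusted p = 0.606). Between ages 12 of 36 were higher in adult WT hearts, beside 31.4% of all genes, and 7 were lower, beside 33.3%. By adjusted p the first 4 were Rcan2, Rgs5, Gna12 and Rgs4 among those higher (log2 fold changes of 1.34, 1.48, 1.07 and 1.66) and Itpr2, Trpc6, Gnaq and Prkcd among those lower (-0.53, -2.62, -0.45 and -0.65).

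**Figure D4:**
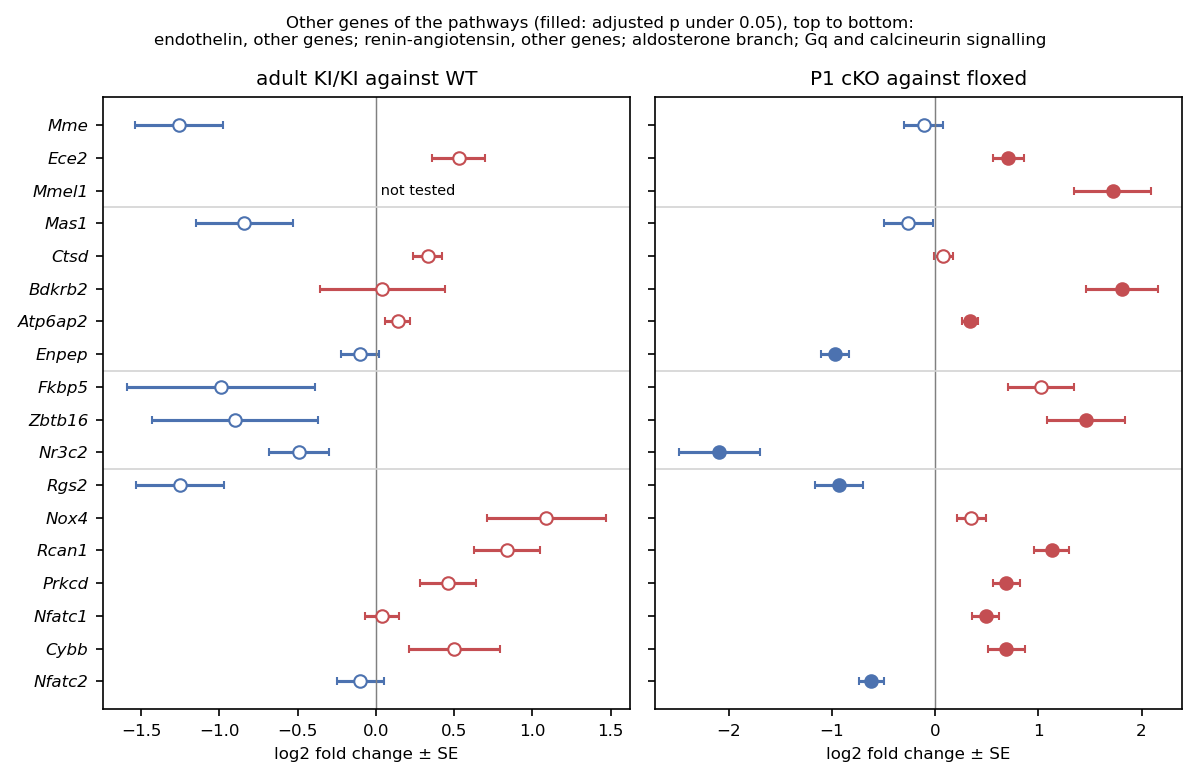
Log2 fold change (edgeR, ± SE) of 18 other genes of the pathways in KI/KI and cKO hearts, grouped from top to bottom into endothelin, renin-angiotensin, aldosterone and signalling genes. Red marks higher and blue lower, filled points have an adjusted p under 0.05 (13 in cKO hearts, 0 in KI/KI hearts), and Mmel1 was too low to be tested in adult hearts.

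For each member the genes whose log2 level followed it most closely over the 12 hearts were found by the mean absolute difference after centring, as a description without a test. The closest to Edn1 were Tuft1 and Dusp4, a phosphatase of MAP kinases (0.30 each, beside a mean absolute deviation of 1.24 for Edn1 itself). Dusp4 was at 11.2 to 43.7 CPM in cKO and at 7.84 CPM or less in all other hearts. Ace was followed by Ttll7 (0.18) and C1qc, a complement gene of macrophages (0.19), and Agtr1a by Pdp1, the phosphatase that activates pyruvate dehydrogenase (0.12), and Abhd3 (0.13). Edn3 was followed by Alx4 (0.33) and Scgb1c1 (0.45), Ednra by Kbtbd12 (0.07) and 2300009A05Rik (0.10), Ednrb by Rpgr and Rfx3 (0.18 each), Ece1 by Tbc1d8b and Bcr (0.11 each) and Agt by Ttc33 (0.09) and Wdr45 (0.10). Agtr2 had the loosest matches, Col9a1 (0.79) and Dlk1 (0.86), a gene of fetal tissues at 66.4 to 91.0 CPM in floxed hearts and at most 0.245 CPM in WT hearts.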

How the data were processed

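Poly(A) RNA of 12 mouse hearts was sequenced, and after adapter trimming (Trim Galore) and alignment to mm10 (STAR 2.7.2b) the authors obtained read counts per gene from HTSeq, which they deposited raw, with no scaling. The strand setting of the counting is not given in the sources used here.

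Differential expression was tested with edgeR 4.0.16 (R 4.3.3): 6 libraries per comparison, TMM factors, filterByExpr, the robust quasi-likelihood test and Benjamini-Hochberg adjustment over all genes tested, with calls at an adjusted p under 0.05. The difference between the genotype effects used all 12 libraries. CPM used TMM factors over the 12 libraries, and CPM per kb divided them by the merged exon length of GENCODE vM21. The steps were tested on simulated counts with 200 genes changed 2-fold or 4-fold. edgeR recovered 160 of them with 11 false calls in the KI/KI comparison and 138 with 11 in the cKO comparison. It recovered 160 with 13 false calls between ages. The simulated hearts had no differences in sex or cell mix and no heart that deviated as a whole. Library totals were 37063669 to 44789753, and counts of 3 or fewer were taken as the floor.

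Alternatives were DESeq2 1.42.0, RLE in place of TMM factors, the filter left out or set to 10 counts in each library, a joint fit of the 12 libraries, the level of Y-linked genes as a covariate, the replicate number as a block and each heart left out. Library totals without TMM were added as a fit after the data were seen. The members and lists were chosen with earlier results of these data known. Named genes are the members, Lemd2, up to 4 called genes per list and direction (with none called, the 2 furthest from 0) and the 2 closest genes per member; marker genes were named after their values were seen. Rcan1 and Nr3c2 in KI/KI hearts and Ece2 there were given for comparison with their cKO values. Gene coordinates and promoters are those of GRCm38. Motif letters were searched on both strands. Each sample is 1 mouse. A few marker gene results are not reported here.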

Additional observations from a re-analysis of the deposited data

Results flagged for a closer look

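Enpep, the aminopeptidase A gene, passed the test for a difference between the 2 models, close to the threshold. The difference of its genotype effects, cKO minus KI/KI, was -0.87 on the log2 scale (SE 0.19, adjusted p = 0.041, edgeR over all 12 hearts). This test called 395 of 15729 genes (2.51%). With 1 heart left out it called from 50 genes (without floxed 1) to 935 (without cKO 6). Enpep itself is not given here with a heart left out. Its level fell in all 3 cKO hearts below all floxed hearts, while KI/KI hearts at 26.0, 23.2 and 22.8 CPM overlapped WT hearts at 23.1, 23.9 and 30.2 CPM. Age and allele differ between the models together.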

How the results depend on the processing

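Of 264 values of a member with 1 heart left out, 232 kept their direction and side of the threshold, 17 lost a call, 9 gained one and 6 changed sign. Most of the 264 belong to results without a call in the main fit, which had none to lose. The calls in cKO hearts were less stable. Of 6 fits each, Edn1 was called in 4, Ednrb in 3, Agtr1a in 3 and Ace in 1. Of 233 under the other settings, 209 kept both, 9 lost a call, 14 gained one and 1 changed sign. In KI/KI hearts Ednrb turned to -0.06 and -0.08 and Agt to -0.03 and -0.09 without WT 2 or KI/KI 6, over ranges of -0.08 to 0.14 and -0.09 to 0.08 and with no call in any fit. Between ages Ece1 turned to 0.07 with the Y-linked covariate. The difference between the models turned to 2.77 for Agtr2 without KI/KI 6 (range -2.44 to 2.77) and to -0.59 for Edn3 without cKO 6 (range -0.59 to 0.74). The causes were not tested.

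In KI/KI hearts DESeq2 called 1 member higher and 3 other pathway genes higher and 2 lower, where edgeR called none. In cKO hearts DESeq2 called 14 other pathway genes higher, the fit of all 12 hearts called 4 members higher and 4 lower, and the Y-linked covariate left 1 member lower and 5 other pathway genes higher. Between ages the Y-linked covariate left 1 member lower, and 12 other pathway genes higher and 3 lower. Ddx3y itself was at 166 to 194 CPM in WT and 107 to 124 CPM in floxed hearts, so that covariate carries part of the age difference. Library totals gave 2 members higher and 5 lower between ages, and 30 other pathway genes lower. For the difference between the models DESeq2 called 1 member higher and 2 lower. By library totals the mean levels were 74.2 (KI/KI) and 87.3 (cKO) CPM for Ednra, 153 (WT) and 229 (floxed) for Ece1, 106 (WT) and 43.5 (floxed) for Ace, 4.36 (WT) for Agt, and 55.4 (WT) and 48.2 (floxed) for Agtr1a.

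With 1 heart left out at a time, KI/KI hearts had 0 to 1 members called higher. In cKO hearts 0 to 3 members were called higher and 0 to 2 lower, and 0 to 14 other pathway genes higher and 0 to 5 lower. The difference between the models called 0 to 2 members higher and 0 to 1 lower. Without floxed 1 no member or other pathway gene was called in cKO hearts, where edgeR called 129 of all genes.

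WT and floxed hearts share replicate numbers, but same-numbered hearts did not deviate together (correlations of -0.25, -0.32 and -0.56), so the numbers were not taken to pair them. With a replicate block the age difference of Agt was 0.54 (adjusted p = 0.0593), and the other 6 calls among the members remained. The WT and KI/KI hearts, and the floxed and cKO hearts, share no replicate number.

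Edn3 at P1 and Agtr2 in adult hearts rest on 12 counts or fewer in the floxed and 4 or fewer in the adult hearts, so depth limits their folds. With 3 hearts per group, calls in cKO hearts depend on single libraries.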
